A study of Homo sapiens with 4 samples.

Results

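SK-MEL28 is an established line of human melanoma cells, and the data described here are its expression signals without exposure to electric pulses. On each of 4 arrays RNA of untreated cells was labelled with Cy3 and hybridised against Cy5-labelled RNA of cells given 8 pulses, either of 1300 V/cm and 100 μs (ECT, pulses of electrochemotherapy, 2 arrays) or of 600 V/cm and 5 ms (EGT, pulses of electrogene therapy, 2 arrays), with RNA taken after 16 h. The untreated cells were held in the same electroporation buffer and received no pulses, and no array had the dyes swapped. In the source labels cisplatin is also named for the EGT arrays and for ECT array 2, and the sources do not say whether the untreated RNA of the 4 arrays came from separate cultures, so the spread between arrays may be technical only. All values below are from the Cy3 channel unless Cy5 is named. The members are the 3048 oligonucleotides that every array carried, all of those in the series, in 12788 spots. Of these, 1989 oligonucleotides for 1892 genes have a gene symbol.

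The level of an oligonucleotide is its net intensity, the spot intensity minus the local background in scanner units, as the median of its spots (4 spots for 2900 of the oligonucleotides). Within each array the net intensities were ranked from 0 for the dimmest to 100 for the brightest oligonucleotide, and this percentile was averaged over the arrays. Brightness also depends on how well an oligonucleotide binds and on how its target was labelled. A percentile therefore orders signals and is not a measure of transcripts per cell. Where a gene had several oligonucleotides, they lay a median of 25.1 percentile points apart from the dimmest to the brightest. For the 67 genes with 2, the median gap was 24.4 points, against 23.6 over all pairs of oligonucleotides with a symbol. A gene with a single one is placed only by that one. Statements on genes and lists below describe the signals of these oligonucleotides and not the expression of the genes.

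Cells of the melanocyte lineage make melanin in organelles called melanosomes. MITF is the transcription factor that switches on many pigment genes, among them the enzymes TYR and TYRP1 and the melanosome protein MLANA. SOX10 acts upstream of MITF, and the receptors KIT and EDNRB act in the development of melanocytes. Melanoma cells keep this program to varying extents.

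An oligonucleotide was called detected on an array when at least 50% of its spots reached 2 times their local background. By this rule 1718 of 3048 oligonucleotides (56.4%) were detected on all 4 arrays and 141 on none. Among those with a symbol, 1474 of 1989 (74.1%) were detected on all 4 arrays and 7 on none. The share of 74.1% is the reference for the counts given for each list below. The share with a symbol was lower near background. Every symbol belonged to one of the 2322 oligonucleotides in the authors' table of ratios, and of the 726 outside it 131 were detected on no array and 4 on all 4.

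The arrays differed in sensitivity. ECT array 1 detected 2895 oligonucleotides, ECT array 2 1753, EGT array 1 2239 and EGT array 2 2260, with a median spot at 5.38, 2.21, 3.36 and 3.07 times background. ECT array 1 alone accounted for 453 of the oligonucleotides detected on a single array, and without it the number detected on none rose from 141 to 594. In the same channel 5 of 6 oligonucleotides with H2NC names, whose purpose the sources used here do not state, lay at mean percentiles of 1.83 to 17.0. On ECT array 1 15 of the 40 spots of these 5 oligonucleotides (37.5%) reached 2 times background, against 2, 3 and 1 on the other arrays.

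The spread between arrays was described by class of brightness and detection. A mean percentile of at least 90 with detection on all 4 arrays is called bright here. It held for 302 oligonucleotides, and for 254 of the 1989 with a symbol (12.8%). The bright set carried 87.4% to 92.1% of the summed net intensity of an array, and the 15 brightest oligonucleotides of an array carried 21.6% to 29.4%. The median SD of the percentile over arrays was 0.267 points for the bright set and 2.05 for the others detected on all 4 arrays. It was 7.01 for those detected on 1 to 3 arrays and 4.55 for those detected on none. A mean of at least 90 leaves a percentile little room to vary, so the small SD of the bright set is partly set by its definition. The detection classes were likewise formed from the same arrays. Net intensity is not bounded by the percentile scale. Its median coefficient of variation between arrays was 27.5% in the bright set and 41.8% in the others detected on all 4 arrays. It was 79.5% in those detected on 1 to 3 arrays and 76.5% in those detected on none. Of the bright set, 291 (96.4%) also reached a mean percentile of 90 in the Cy5 channel of exposed cells on the same arrays.

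Oligonucleotides of the melanocyte and melanoma genes were mostly detected on every array. Of 16 for 16 genes, 14 were detected on all 4 arrays (87.5% against 74.1% over all with a symbol) and 2 on fewer. Other genes chosen for this list, among them PMEL, DCT and MC1R, had no oligonucleotide with a symbol and are not counted. Counts for each list cover only its genes that had such an oligonucleotide. There were 4 bright ones (25.0% against 12.8%). Their median percentile was 81.3, against 61.1 for all oligonucleotides with a symbol. Net intensities below are given with the ECT arrays 1 and 2 first and then the EGT arrays 1 and 2, followed by the mean percentile ± SD (n = 4 arrays).

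Among the pigment genes TYRP1, an enzyme of melanin synthesis, had net intensities of 2428, 1926.5, 2801 and 1458.5 (93.2 ± 0.40). TYR, the rate-limiting enzyme of that pathway, had 406.5, 197.5, 280.5 and 200.5 (80.3 ± 0.53), and MLANA had 319.5, 143.5, 217 and 141 (77.8 ± 0.76). All 3 were detected on every array, and the SD of each percentile was under 1 point. CD63, a tetraspanin of melanosomes and other late endosomal organelles, had 7871, 4366, 6302.5 and 4390 (96.4 ± 0.33). GPR143, a receptor of the melanosome membrane, was detected on 3 arrays with net intensities of 35, 7, 13 and 17 (34.8 ± 2.76). RAB27A, which tethers melanosomes for transport, had 89, 18.5, 27 and 43 (54.2 ± 5.42). The pigment genes thus covered brightness from the bright set to near the detection limit.

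Of the transcription factors, MITF had 517.5, 737, 1209 and 240.5 (85.9 ± 3.90). EGT array 1 was highest and EGT array 2 lowest, so the EGT arrays alone spanned the range of all 4. The percentile of MITF was higher on ECT array 2 and EGT array 1 (88.7 and 89.8) than on ECT array 1 and EGT array 2 (82.9 and 82.2). The same pairs of arrays are described below. SOX10 had 415.5, 317, 478 and 198.5 (82.3 ± 1.72). Both factors were detected on all 4 arrays.

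Among the surface receptors ERBB3, a receptor for neuregulins, was the brightest of the list with 11272, 10325.5, 11166 and 6696 (97.6 ± 0.17). NGFR, the low-affinity neurotrophin receptor of neural crest cells, had 1330, 953.5, 1535.5 and 795 (90.1 ± 0.48). EDNRB, the endothelin receptor of melanocyte precursors, had 259, 123, 190 and 139.5 (76.5 ± 0.70). KIT, the receptor for stem cell factor, was the dimmest member with 19.5, 5.5, 9 and 7.5 (20.3 ± 7.23) and was detected on ECT array 1 alone. The remaining members were S100B at a mean percentile of 83.4, the cadherins CDH3 at 82.3 and CDH2 at 72.9, and the proteoglycan CSPG4 at 68.2.

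MITF binds the letters CATGTG, the core of the element called the M-box, in promoters of pigment genes. The 250 bases before the RefSeq start (GRCh38.p14) were searched for CATGTG on both strands, which is CACATG when read on the other strand. CATGTG is 1 form of the E-box CANNTG. It was found in 5 of the 11 melanocyte genes that matched the RefSeq promoter table (45.5%), against 9.54% of all 27305 promoters in the table and 6.98% of the 1533 array genes that matched. The genes were chosen for their known part in this program, so the share is a description of the list. The 5 genes were TYRP1, CD63, TYR, EDNRB and GPR143. TYRP1, CD63 and TYR, with high signal, and the dim GPR143 are shown, since they include the brightest and the dimmest of these 5 genes. The sequences run 5′ to 3′ on the strand of the gene, with the motif in capitals.
TYRP1 (chr9:12693135-12693384, plus strand): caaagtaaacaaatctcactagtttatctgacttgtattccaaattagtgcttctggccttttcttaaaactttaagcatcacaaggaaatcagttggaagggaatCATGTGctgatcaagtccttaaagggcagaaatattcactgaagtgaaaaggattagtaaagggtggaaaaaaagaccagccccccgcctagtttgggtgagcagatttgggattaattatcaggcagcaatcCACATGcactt
CD63 (chr12:55729010-55729259, minus strand): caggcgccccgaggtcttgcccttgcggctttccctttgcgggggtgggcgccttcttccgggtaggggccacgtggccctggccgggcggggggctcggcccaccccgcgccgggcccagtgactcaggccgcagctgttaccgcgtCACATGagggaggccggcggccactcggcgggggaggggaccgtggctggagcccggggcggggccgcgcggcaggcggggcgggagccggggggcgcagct
TYR (chr11:89177625-89177874, plus strand): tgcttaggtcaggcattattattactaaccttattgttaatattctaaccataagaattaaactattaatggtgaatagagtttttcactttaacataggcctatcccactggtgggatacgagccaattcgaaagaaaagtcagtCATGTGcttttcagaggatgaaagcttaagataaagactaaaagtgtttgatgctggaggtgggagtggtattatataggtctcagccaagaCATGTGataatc
GPR143 (chrX:9765848-9766097, minus strand): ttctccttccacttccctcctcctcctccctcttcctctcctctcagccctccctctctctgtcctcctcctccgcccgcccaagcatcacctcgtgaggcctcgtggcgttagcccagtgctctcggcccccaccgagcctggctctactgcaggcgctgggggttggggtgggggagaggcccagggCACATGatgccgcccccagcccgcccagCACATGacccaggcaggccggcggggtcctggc
The motif lay 144 and 11 bases before the start in TYRP1, 102 in CD63, 104 and 12 in TYR, and 61 and 33 in GPR143. CD63 and GPR143 both held it, at mean percentiles of 96.4 and 34.8. MITF, MLANA, CDH2, CSPG4, RAB27A and KIT had no match in this window. A single start was searched per gene, so any other starts of these genes were not covered. Over the 1533 matched genes, sorted by brightness into 5 groups of about equal size, the share with the motif was 6.51% in the dimmest group and 7.82% in the brightest, with 4.90% to 8.14% between. The median GC content of these groups was 62.8% to 64.4%.

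Markers of some other tissues were also bright, so brightness did not single out the melanocyte list. The epithelial markers had the highest median of all 48 lists at 94.5, with 10 of 10 oligonucleotides detected on all 4 arrays. Of these, 6 were bright (60.0% against 12.8% over all with a symbol). KRT19, a keratin of simple epithelia, had net intensities of 55788, 43939.5, 48271 and 50894.5 (99.8 ± 0.16). CDH1, the cadherin of epithelial junctions, had 7942.5, 6252, 7572 and 4414.5 (96.7 ± 0.02), and both oligonucleotides of KRT14, a keratin of basal epidermis, were bright at 98.7 and 97.6. The keratin gene KRT5 lay at 92.8, the mucin gene MUC4 at 96.3 and 74.3 by its 2 oligonucleotides, KRT7 at 65.9 and the desmosome gene DSP at 55.9. JUP, which encodes plakoglobin, had 545.5, 20.5, 15.5 and 286 (64.4 ± 22.7), with ECT array 1 and EGT array 2 high and the others low.

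Of the lymphocyte markers, 7 of 12 were detected on all 4 arrays, 4 on fewer and 1 on none, and their median was 45.0. The T cell genes CD28 at 91.6 ± 0.23 and CD8A at 89.4 ± 0.16 were nevertheless near the top, while CD4 lay at 30.1 ± 6.14 and GZMB, the protease of cytotoxic cells, was detected on no array. The myeloid markers had a median of 86.0 (6 of 6 detected on all 4 arrays), led by the integrin ITGAX at 95.1 ± 1.39. The fibroblast and matrix markers had a median of 87.7 (9 of 10), the endothelial markers 64.7 (5 of 7) and the liver and serum genes 72.0 (5 of 6). In the last, the liver cytochrome CYP3A4 lay at 89.4 and the serum protein gene APOA1 at 21.9. The bright share was 50.0% for the fibroblast and matrix markers and 33.3% for the myeloid markers. It was 14.3% for the endothelial markers, 8.33% for the lymphocyte markers and 0.0% for the liver and serum genes, against 12.8% over all with a symbol. In the fibroblast and matrix list DCN had 3 oligonucleotides, at 96.5, 93.6 and 53.6. Whether such signals came from the named transcript was not tested, since the arrays hold no second measurement of most genes.

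Oligonucleotides of genes used as references in many tissues mostly had high percentiles, and 3 were bright (30.0% against 12.8% over all with a symbol). Of 10 oligonucleotides for 9 genes, 9 were detected on all 4 arrays, and the median percentile was 88.9. EEF1A1, a translation elongation factor, had 2 oligonucleotides at 92.2 and 87.7, and the others included PPIA at 91.6, LDHA at 91.4, B2M at 89.9, GAPDH at 88.6, YWHAZ at 86.0 and TUBA1B at 83.0. ACTB, the cytoplasmic actin, had net intensities of 2585.5, 424.5, 605 and 1373.5 (89.3 ± 4.11), high on ECT array 1 and EGT array 2. TBP, the TATA-binding protein, was near background with 38, 1.5, 8 and 21 (27.5 ± 16.1). All 9 ribosomal protein oligonucleotides were detected on all 4 arrays, with a median of 84.2 and a range from RPS9 at 61.6 to RPL38 at 91.5.

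The 15 brightest genes were of mixed function. RBL2, a pocket protein of the retinoblastoma family, led with net intensities of 50972, 49756.5, 57965.5 and 52942 (99.9 ± 0.08), followed by KRT19. The others, at mean percentiles of 99.7 to 99.3, were the protocadherin PCDH1, the orphan nuclear receptor NR2F6, the neuropeptide gene CORT, the pre-B cell light chain gene IGLL1, TTYH1, the lysosomal cholesterol transporter NPC1, USP6NL, the ubiquitin-conjugating enzyme CDC34, the retinoid receptor RXRG, the histone chaperone DAXX, CLEC3B, the secreted ligand WNT2 and the centromere gene ITGB3BP. The SD of these percentiles was 0.07 to 0.30 points, larger than most steps between neighbours, so their order was not resolved. On the 4 arrays 2 spots exceeded 65000, both on EGT array 1.

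Among genes of growth and signalling, the kinases PIK3CD at 98.3, GSK3A at 95.9, AKT1 at 95.7 and GSK3B at 94.8 were bright. MTOR lay at 35.8 ± 7.67. Of 20 nuclear receptor oligonucleotides 6 were bright (30.0% against 12.8% over all with a symbol) and 13 were detected on all 4 arrays (65.0% against 74.1%), with a median of 83.0 and a range from NR2F6 at 99.7 to the thyroid hormone receptor THRA at 20.2. Of 25 receptor tyrosine kinase oligonucleotides, 20 were detected on all 4 arrays, with a median of 67.9. Behind ERBB3 came the neurotrophin receptor NTRK2, whose 3 oligonucleotides lay at 93.9, 60.9 and 58.2, the VEGF receptor KDR at 92.3 and 64.7, and IGF1R at 91.9 and 81.3. The RAS, RAF and MAP kinases had a median of 58.9 (16 of 24), led by MAP3K14 at 99.0.

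Genes known as drivers of melanoma ranged widely. The G protein gene GNA11 lay at 95.6 ± 0.19, NF1, which restrains RAS, at 89.3 ± 0.91, CCND1, the G1 cyclin, at 78.3 ± 0.63 and the kinase MAP2K1 at 76.6 ± 5.78. MYC was lower at 43.1 ± 7.19, with net intensities of 47.5, 21, 13.5 and 20. RB1 had 2 oligonucleotides at 84.1 and 59.8. The median of this list was 78.3, with 8 of 9 detected on all 4 arrays. In the list of CDK inhibitors and the RB family, 16 of 17 oligonucleotides were detected on all 4 arrays with a median of 71.5, and the exception was CDKN1A, the inhibitor p21, with 26.5, 2.5, 3 and 8 (15.5 ± 7.22).

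Genes of proliferation lay around or below the median of all oligonucleotides with a symbol. The cyclins and CDKs had a median of 62.8 (17 of 22 detected on all 4 arrays), the G2/M and mitosis genes 62.4 (20 of 22) and the replication and licensing genes 54.4 (16 of 21). The mitotic kinases AURKB at 93.6 and PLK1 at 90.7 were bright, and TYMS, the enzyme that makes thymidylate, lay at 88.9. The MYC family and oncogenic transcription factors had a median of 50.4 (10 of 15), the immediate early and AP-1 genes 59.6 (6 of 8) and the p53 family and targets 55.9 (10 of 14).

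For the making and breakdown of proteins, the medians were 67.5 for translation factors (13 of 14 detected on all 4 arrays), 69.4 for proteasome subunits (16 of 19) and 63.0 for ubiquitin enzymes (17 of 22). The glycolysis and energy genes had a median of 83.2 (6 of 6), led by the lactate dehydrogenase gene LDHB at 94.3. The histones had a median of 65.7 (12 of 15) and the MHC and antigen presentation genes 73.5 (4 of 4). The cytoskeleton genes had a median of 80.5 with 29 of 37 detected on all 4 arrays and 14 bright (37.8% against 12.8%), of which 8 were keratin oligonucleotides.

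Among secreted and surface proteins the integrins and adhesion genes had a median of 69.2 (23 of 26), the growth factors and IGF axis 60.6 (21 of 30), the cytokines and chemokines 59.4 (33 of 43), the cathepsins, plasminogen and serpins 58.5 (7 of 12) and the metalloproteinases and inhibitors 47.7 (13 of 20). The growth factor midkine (MDK) at 99.1 and IGF2 at 97.1 were bright, and FGF2 lay at 26.1 ± 2.85 with detection on 2 arrays. The pathway lists were WNT, Notch and hedgehog with a median of 61.0 (16 of 18), JAK-STAT with 51.1 (4 of 5), TGF-beta and BMP with 48.3 (9 of 13) and NF-kB with 46.5 (5 of 9). The small lists were the neural and neuroendocrine genes with 88.2 (3 of 3), the cancer-testis antigens with 58.9 (6 of 7), the S100 proteins and annexins with 55.9 (4 of 5) and the reproductive hormones and placental genes with 55.7 (4 of 4).

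Oligonucleotides of the BCL2 family, the caspases and the death receptors and adaptors had medians below the 61.1 of all with a symbol. The BCL2 family had the lowest median of the 48 lists at 40.2, with 8 of 19 oligonucleotides detected on all 4 arrays (42.1% against 74.1% over all with a symbol) and none bright. Its brightest member was 1 of the 2 oligonucleotides of the BH3-only gene BCL2L11, at 75.5. The anti-apoptotic genes MCL1 at 20.3 ± 5.91 and BCL2 at 22.9 ± 10.9 were detected on 1 array each. BCL2A1, a target of MITF in melanocytes, lay at 62.8 ± 0.72. The caspases had a median of 45.4 (5 of 10), with CASP9 at 88.6 and 41.1 by its 2 oligonucleotides. The death receptors and adaptors had a median of 49.0 (12 of 18). The inhibitors of apoptosis proteins were higher, with 5 of 5 detected on all 4 arrays and a median of 75.2, including BIRC5, which encodes survivin, at 79.2.

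Among stress and repair genes, 22 of 25 heat shock oligonucleotides were detected on all 4 arrays (88.0% against 74.1% over all with a symbol). Their median was 71.3, with HSF4 at 97.2, HSP90AB1 at 96.0 and HSPA2 at 95.1 as the brightest. The redox and detoxification genes had 22 of 23 detected on all 4 arrays (95.7%). Their median was 78.2, led by the glutathione transferase GSTM4 at 98.1. The DNA repair and checkpoint genes had 15 of 23 and a median of 57.7, from ERCC4 at 93.8 to 1 of the 2 oligonucleotides of the checkpoint kinase ATM at 15.1. ERCC3, a helicase of nucleotide excision repair, was detected on no array. Together with GZMB it was 1 of 7 oligonucleotides with a symbol that no array detected, the others being those of RPE65, GFRA2, SKIL, MMP9 and ZNF236. MMP9, a gelatinase, had net intensities of 13, 5.5, 6.5 and 6.5. At this sensitivity a signal of these genes was not detectable, which does not show that they were silent.

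Different oligonucleotides of one gene lay about as far apart in brightness as those of different genes. For 79 genes the array carried several, 176 oligonucleotides in all. The range of mean percentile within a gene, with the median given above, was under 10 for 18 genes and over 50 for 11. The median SD of these oligonucleotides over arrays was 1.79 points, so the disagreement was larger than the spread between arrays. For the 67 genes with 2 oligonucleotides, the median gap was 24.4 points, against 23.6 over all pairs of oligonucleotides with a symbol, and the Spearman correlation across genes, taking each pair in both orders, was 0.0945.

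The widest range was that of the retinoid receptor RXRA, from 24.4 to 97.9. It was followed by the kinase CLK2 from 25.8 to 96.7, the chromatin protein HMGA1 from 34.1 to 99.0, the focal adhesion kinase PTK2 from 14.9 to 78.6 and the p53 target TP53I3 from 33.8 to 96.1. For 5 genes 1 oligonucleotide was bright and another was detected on fewer than 4 arrays. Among close pairs were those of KRT14, at 97.6 and 98.7. DAXX, among the 15 brightest genes by 1 oligonucleotide, lay at 74.2 by its other.

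The untreated channel was also compared between arrays, since all 4 are labelled as the same untreated cells. Limma with Benjamini-Hochberg adjustment, on quantile-normalised log2 intensities of the ECT against the EGT arrays, called 0 of 3048 oligonucleotides (0.0%) at an adjusted p below 0.05. At an unadjusted p below 0.05 there were 19, fewer than chance alone gives at that threshold. The most alike arrays, described next, lay in different groups, so the difference between these pairs entered the residual of the fit. The 0 calls therefore cannot show that the untreated channel agreed between the ECT and EGT arrays.

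The 2 most alike pairs of arrays each joined an ECT with an EGT array. Over the 3048 oligonucleotides the Spearman correlation of net intensity was 0.978 between ECT array 1 and EGT array 2 and 0.962 between ECT array 2 and EGT array 1, against 0.934 and 0.928 within ECT and within EGT and 0.929 and 0.933 for the same-numbered arrays of both pulse types. Over the 1718 detected on all 4 arrays the values were 0.990 and 0.980 for the alike pairs and 0.948 to 0.957 for the rest. Points in these correlations share the array design and the oligonucleotides, and no p is given.

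The same pairs stood apart in single oligonucleotides. For 15 oligonucleotides, 13 with a symbol, signals reached at least 5 times background on ECT array 1 and EGT array 2 and were not detected on ECT array 2 and EGT array 1. No oligonucleotide showed this for any other pair of arrays. RAP1GAP, which encodes a protein that inactivates the GTPase RAP1, had net intensities of 2641, 1, 0.5 and 1238.5, or 190, 1.07, 1.05 and 100 times background. In Cy5, the exposed cells on the same arrays, it stood at 41.0, 1.20, 1.10 and 59.2 times background. CEBPB, a leucine zipper transcription factor, had net intensities of 602, 6, 6.5 and 316. The others with a symbol were BEX3, CA5A, H3-3A, CYSLTR1, ALG3, PLK3, ATOH1, PHLDA3, CNP, AGAP4 and PCCA. Over the 15 the median signal over background was 16.6, 1.44, 1.26 and 10.2 in Cy3 and 4.63, 1.34, 1.23 and 5.93 in Cy5, so both dyes showed the pattern.

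Other genes showed the contrast without falling below detection. They were chosen after their values were seen. The proteasome subunit PSMD2 had net intensities of 900, 15, 18.5 and 434, the mitochondrial chaperone HSPE1 had 447.5, 21, 16 and 213.5, and the transcription factor MYB had 355, 15, 16 and 174.5. The phosphatase CDKN3 ran the other way with 87.5, 264, 1551.5 and 42. Without the 15 oligonucleotides the correlations were 0.977 and 0.963 within the 2 alike pairs and 0.940 to 0.942 for the others. Whether the pairs shared a culture, an array batch or a hybridisation day cannot be read from the labels.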

How the data were processed

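Oligonucleotide arrays of 4 samples, 2 with ECT and 2 with EGT pulses, were analysed. The authors scanned the arrays and deposited for each spot the median intensity and local background of both channels on a linear scale, neither subtracted nor normalised. Their deposited log2 ratios of exposed over untreated cells, made after spot filtering and LOWESS, were used to check which channel holds untreated cells (Pearson r of 0.704 to 0.883 per array) and to tell which oligonucleotides passed their filter.

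Here 4 spots with a local background over 1000 were left out, all on EGT array 1. Net intensity was the median over spots of intensity minus background, ranked within an array. The number of arrays limits the precision. The ECT and EGT arrays were compared with limma 3.58.1 in R 4.3.3 on Cy3 intensities (normexp with an offset of 50, quantile normalisation), with Benjamini-Hochberg adjustment over all oligonucleotides. The steps were tested on simulated data. For limma this covered the fit alone, without background correction or normalisation. The simulated arrays had independent noise and lacked the alike pairs described above, so they do not bear on how those pairs affected the fit.

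Symbols came from the array's annotation and 0 differed from the GRCh38.p14 reference. Promoters from RefSeq matched 1533 genes (81.0%). Genes named are the 15 brightest, 3 lists in full (melanocyte, melanoma driver and reference genes), up to 3 of the brightest and 1 of the dimmest of the other lists, the 5 largest SDs between arrays, the 5 widest ranges between oligonucleotides and the genes detected on no array. Further list members were named after their values were seen. The members and the 48 lists were chosen with earlier results of these data known. The result of 1 of these lists is not reported here.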

Additional observations from a re-analysis of the deposited data

Results flagged for a closer look

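In 15 of 219 oligonucleotides of 210 named genes, 1 array stood apart from the other 3 in percentile by more than Dixon's critical value. Chance alone flags about 1 in 20, and 15 of 219 is little above that rate. The count therefore does not show that more arrays stood apart than chance gives, and the single cases below are descriptions. The share among oligonucleotides that are not named is not given here. ECT array 2 was the separate array in 6, EGT array 1 in 4, ECT array 1 in 3 and EGT array 2 in 2.

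In most of the 15 the size of the difference was small. CLEC3B reached 99.8359 on EGT array 2 against at most 99.4093 elsewhere, and WNT2 reached 99.5405 on ECT array 1 against at most 99.3764. MLANA was at 78.9629 on ECT array 1 against 77.3384 to 77.5353, and CDH1 at 96.7181 on ECT array 2 against 96.6853 on each of the others. HSPA2 was lower on ECT array 1 (94.8474), and RPA3 (77.0266), ITGAX (93.0095) and MXD1 (89.2353) were lower on ECT array 2, while FOSL1 (94.2566) was higher there. On EGT array 1 IGF1 was higher (97.7355), and KRT2 (98.359) and the brighter oligonucleotide of CLK2 (96.3243) were lower.

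The gap was large for 3 genes. POU3F4, a POU domain transcription factor, stood at 80.9321 on ECT array 2 against 3.45 to 13.8 on the others, with a net intensity of 216.5 there and 19, 1.5 and 7.5 on ECT array 1, EGT array 1 and EGT array 2. POU3F4 was named for its large SD over these same arrays, so its flag was nearly set by that choice. RFC2, a subunit of the clamp loader of DNA replication, stood at 37.9061 on EGT array 1 against 7.42 to 8.73. SKIL stood at 20.4299 on EGT array 2 against 0.377 to 3.45, all near background.

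VM_H2NC000004 had a mean percentile of 72.1037, with net intensities of 196, 79, 119.5 and 104.5 and detection on all 4 arrays, while the other 5 oligonucleotides with H2NC names lay at 17.0 or below. The purpose of these oligonucleotides was not given in the sources used here.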

How the results depend on the processing

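The detection counts depended on the rule. The number detected on no array, 141, became 13 at 1.5 times background, 733 at 3 times, 1106 when the SD of the background had to be at most 0.3 of the spot and 746 when all spots had to pass. It ranged from 142 to 594 with 1 array left out, and the 594 came without ECT array 1. The number detected on all 4 arrays, 1718, was 2148, 1337, 1342 and 1239 under the same rules. With the brightest of the 5 dim H2NC oligonucleotides as the limit, a rule added after seeing the data, it was 2035, with 182 on none. Ranking only oligonucleotides with a symbol, which takes out mostly dim ones, gave 200 bright. The like figure in the main ranking is 254, since the 302 include oligonucleotides without a symbol. The bright cut takes a nearly fixed share of whatever is ranked, so this count was largely set in advance. All 200 were among the 302, which was also nearly set, since ranking a subset mostly keeps its order. The median of the melanocyte list became 75.6 and that of the reference genes 85.6. The median of all with a symbol, 61.1 in the main ranking, moves near the middle of the scale by construction. The lower list medians therefore do not show that these lists stood out less. The other settings kept 300 to 302 of the bright set. With the replicate number as a block, limma called 0 oligonucleotides and 7 at an unadjusted p below 0.05. Same-numbered arrays did not deviate together (r of -0.83 over 3048 oligonucleotides), and a block with crossed numbers, added after seeing the data, called 0 and 137 unadjusted. The other settings of that test called 0 each, with 4 to 83 unadjusted. Dim signals limit the rest, since those detected on 1 to 3 arrays varied by 79.5% between arrays.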
